A study of Eonycteris spelaea and Mus musculus with 51 samples.

Results

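Lung of the cave nectar bat, Eonycteris spelaea, was compared between animals that had recovered for 4 h after heat shock and untreated animals. The comparison used 6 of the 51 RNA-seq libraries of the series, chosen by their labels: 3 recovery libraries and 3 control libraries. Control bats were sampled at baseline, prior to treatment. Recovery bats received 1 h of heat shock in the living animal and then 4 h of recovery, and the 3 heat libraries, from bats sampled right after the 1 h of heat shock, are given beside them. All groups were whole lung from the same species, and the labels used here give no age, sex, strain or further treatment. No unheated animals were sampled at the recovery time, so heat shock and the elapsed time or handling cannot be told apart. The labels number the libraries within a group but do not state that each came from a different animal. The p-values therefore measure the spread between these libraries, which may be technical.

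As background, cells exposed to heat raise the transcription of heat shock genes through heat shock factors, and the chaperone proteins they make hold and refold damaged proteins. Once proteins are folded again, chaperones bind the factors and transcription returns toward its resting level. Lung is a mixture of alveolar and airway epithelium, endothelium, connective tissue and blood-derived cells. In such bulk tissue, fewer cells of a type and less RNA per cell cannot be told apart.

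The bat count table has 30017 rows, of which 19149 had enough reads in lung to be tested. Of the rows in the table, 18152 are named by human Ensembl gene identifiers, which could not be paired here with gene symbols, so these genes are given by identifier alone. Symbols were available for rows named by mouse gene identifiers (758 of 762) and for rows whose name in the table is itself a symbol, and 189 rows with a symbol were tested. KDR, the receptor for vascular endothelial growth factor on endothelium, was the only marker of a lung cell type that could be found by symbol. Its level was 142 to 179 CPM (reads scaled to a common library size, the usual CPM unit of edgeR) in control lung and 154 to 190 in recovery lung. In control muscle of the same species KDR was at 48.6 to 57.1 CPM, and in control blood at 0.00 to 0.09. Its level was thus highest in lung and near 0 in blood, but the lung label could not be checked against epithelial or surfactant genes.

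The 9 lung libraries held 9.29 to 21.7 M counts, and control library 3 stood apart from the other 8. It had the smallest total, 9.29 M against 16.1 to 21.7 M reads. The correlation of its log2 levels with the other libraries was 0.862 to 0.903, against 0.953 to 0.971 among the other 8. It held the highest level of the 9 libraries in 25.6% of the rows tested, against 6.36% to 10.8% for each of the others. Numbered non-coding RNA rows took 6.49% of its counts and 3.20% to 3.68% of the counts of the others. Values without control library 3 are therefore given beside the main ones where that library moved them.

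Very few genes differed between recovery and control lung by the test used. By the quasi-likelihood test of edgeR, with p-values adjusted by Benjamini and Hochberg's method, 9 of 19149 rows passed an adjusted p of 0.05 (0.047%). Of these, 3 rose (0.0157%) and 6 fell (0.0313%), and all were rows with human identifiers. The groups did not overlap in any of the 9, as was also true of 20.6% of all rows tested. At an unadjusted p under 0.05, 1121 rows were higher in recovery (5.85%) and 1969 were lower (10.3%). The median log2 change over all rows tested was -0.00. The last row to pass had an adjusted p of 0.0494 and a log2 change of 1.00, and the first that did not pass had 0.0504 and a log2 change of -2.01. Without control library 3 the test called 62 of 19449 rows (0.319%), of which 13 rose (0.0668%) and 49 fell (0.252%), and these included all 9. At an unadjusted p under 0.05 there were then 1343 higher (6.91%) and 1556 lower (8%). Leaving out control library 1 or 2, or any recovery library, left 0 calls. DESeq2 on the same 9 libraries called 950 of 19835 rows with an adjusted p (4.79%), 255 up and 695 down, and without control library 3 it called 763 of 19108 (3.99%).

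**Figure D1:**
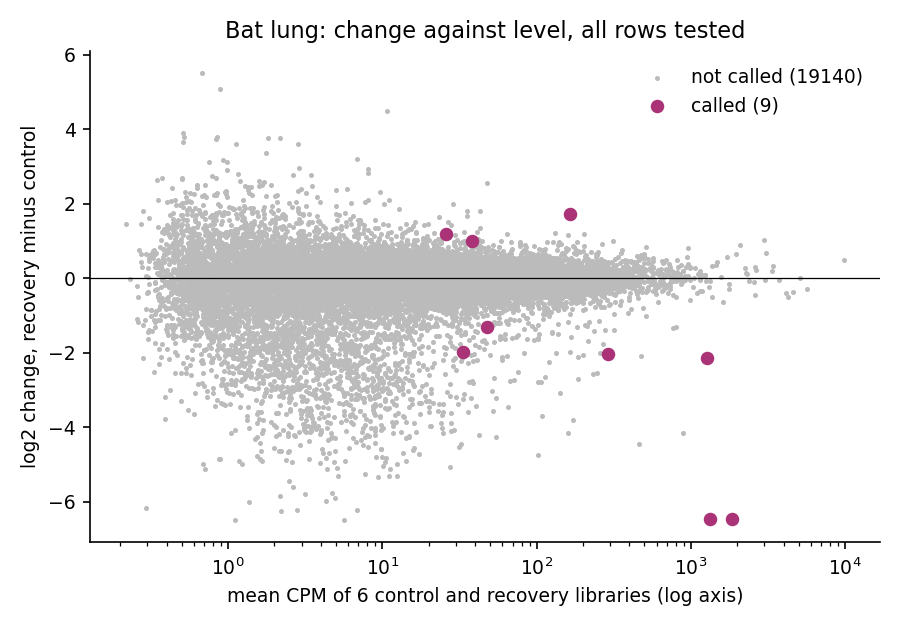
Log2 change from control to recovery (vertical axis) against mean level in CPM over the 6 libraries (horizontal log axis) for each of the 19149 rows tested in bat lung, with the 9 called rows as large points. The 2 rows near a log2 change of -6.47 lie at the high end of the level axis, and grey rows, not called, lie on both sides of 0.

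The largest called changes were falls in 2 abundant genes. ENSG00000204389 was at 3989, 3948 and 3049 CPM in control libraries 1 to 3 and at 28.7, 47.6 and 47.5 CPM in recovery libraries 1 to 3. Every recovery library was far below every control library. The level in recovery was 88.7-fold lower, a log2 change of -6.47 with a standard error (SE) of 0.71 and an adjusted p of 0.0225 by edgeR. In the heat libraries the same gene was at 813, 6551 and 3053 CPM, so the libraries taken right after heat spread on both sides of the control values. The log2 difference from heat to recovery was -6.39 (edgeR adjusted p = 0.0177), and that between heat and control was -0.08 (edgeR adjusted p = 0.973).

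ENSG00000204388 followed the same course. Its control libraries were at 2723, 2665 and 2533 CPM, close to each other, and its recovery libraries were at 29.3, 31.7 and 28.7 CPM. The fall was 88.4-fold, a log2 change of -6.47 (SE 0.73, edgeR adjusted p = 0.0225). Its heat libraries were at 545, 5266 and 2309 CPM, and heat library 1 was the lowest and heat library 2 the highest for both genes. From heat to recovery the log2 change was -6.50 (edgeR adjusted p = 0.0177). Whether these 2 rows share reads, as rows of near-identical genes would, was not tested. Without control library 3 the log2 changes were -6.59 and -6.49 (edgeR adjusted p = 0.0254 and 0.0286).

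The 2 called genes with the largest rise were both lower right after heat than after recovery. ENSG00000160145 was at 83.7, 71.3 and 73.9 CPM in control and at 304, 216 and 235 CPM in recovery. The lowest recovery library was above the highest control library by more than the range within either group. The rise was 3.30-fold, a log2 change of 1.72 (SE 0.20, edgeR adjusted p = 0.0225), and 1.70 without control library 3 (edgeR adjusted p = 0.0355). The heat libraries lay between, at 128, 106 and 174 CPM. Neither step passed on its own: heat against control gave a log2 difference of 0.83 (edgeR adjusted p = 0.572), and recovery against heat 0.89 (edgeR adjusted p = 0.166).

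ENSG00000151117 had nearly equal control libraries. Its control libraries were at 15.6, 15.6 and 15.9 CPM and its recovery libraries at 33.2, 37.1 and 36.8 CPM. The mean went from 15.7 ± 0.146 to 35.7 ± 2.18 CPM (SD, n = 3 each), a 2.27-fold rise with a log2 change of 1.19 (SE 0.14, edgeR adjusted p = 0.0225). The heat libraries, at 17.1, 17.98 and 16.8 CPM, stayed near control, and the log2 change from heat to recovery was 1.05 (edgeR adjusted p = 0.0314).

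Of the other 5 called genes, the third rise had a log2 change of 1.00, smaller than the 2 rises above, and the other 4 falls, smaller than the 2 falls above, had log2 changes of -1.31, -1.98, -2.04 and -2.13, or 2.48- to 4.39-fold. Of all 9 called genes, 7 were also called between heat and recovery and 0 between heat and control, by edgeR in the same fit. These contrasts share the recovery or control libraries, so the counts are not independent of each other. The share of all rows called in these 2 contrasts is not given here, so the counts cannot be read as particular to these genes.

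**Figure D2:**
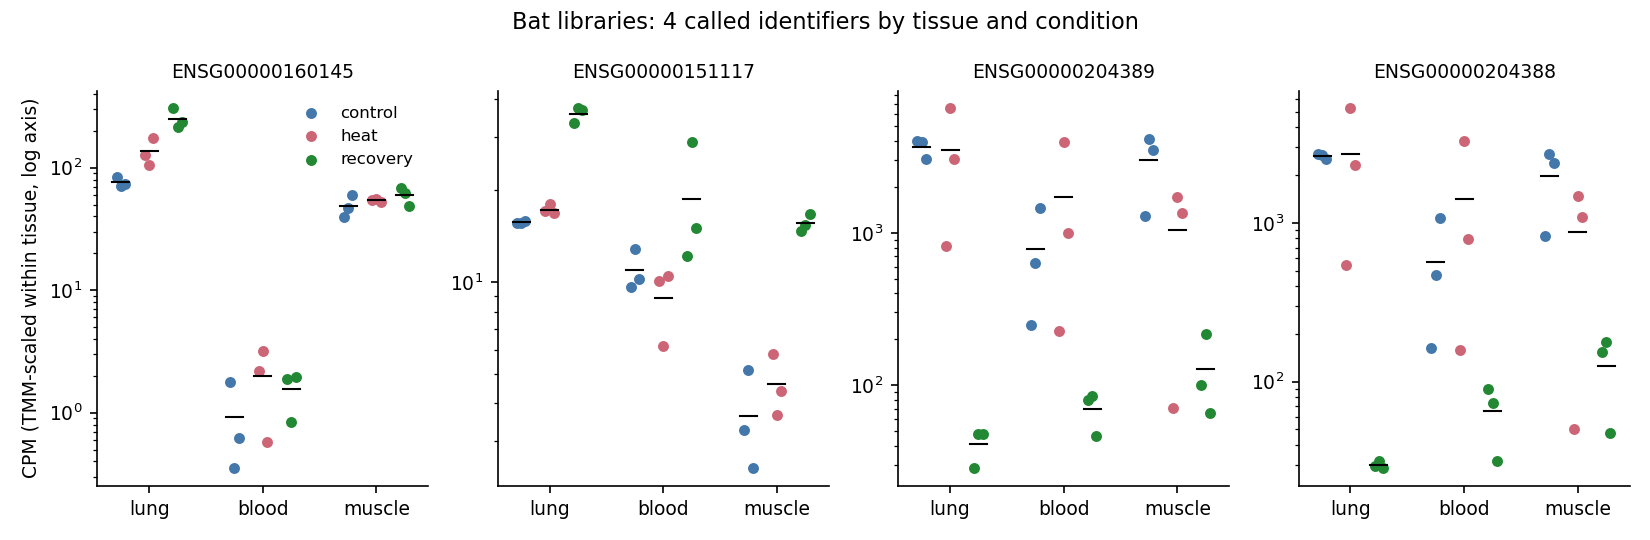
Levels of 4 called genes in CPM (log axis) in each of the 27 bat libraries, by tissue and condition; points are libraries and bars are means of 3. In lung, ENSG00000204389 and ENSG00000204388 were at 28.7 to 47.6 CPM in recovery against 2533 to 3989 CPM in control, and ENSG00000160145 and ENSG00000151117 had all recovery points above all control points.

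The same 4 genes were followed in blood and muscle of the same species, scaled within each tissue. ENSG00000204389 was at 1287 to 4146 CPM in control muscle and 65.2 to 217 CPM in recovery muscle, and at 248 to 1452 CPM in control blood and 46.2 to 84.4 CPM in recovery blood. The groups did not overlap in either tissue, but the share of all rows without overlap in blood or muscle is not given here. In lung that share was 20.6%. ENSG00000204388 was at 829 to 2704 CPM in control muscle against 47.1 to 178 CPM in recovery muscle, and at 163 to 1076 CPM in control blood against 31.7 to 90.3 CPM in recovery blood. Both genes were thus lower in all 3 recovery libraries of each tissue, and control lung had the narrowest range, with blood and muscle controls spread over more than that. In all 3 tissues, heat library 1 was the lowest heat library and heat library 2 the highest for both genes. The labels do not say whether the tissues came from the same bats, so the tissues cannot be taken as independent. ENSG00000151117 was at 2.46 to 5.15 CPM in control muscle against 14.7 to 16.7 CPM in recovery muscle, without overlap, while in blood the ranges of 9.65 to 12.9 and 12.2 to 28.9 CPM overlapped. ENSG00000160145 had overlapping ranges in muscle, 39.6 to 60.0 CPM in control and 48.3 to 68.2 CPM in recovery. In blood it was at 0.36 to 1.78 CPM in control and 0.84 to 1.97 CPM in recovery. Whether the change differed between lung and the other tissues was not tested.

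None of the rows with a symbol was called. By edgeR 0 of 189 passed with all 9 libraries, against 0.047% of all rows. Without control library 3 it was again 0, against 0.319% of all rows. With shares this small, 0 calls cannot be read as particular to these rows. DESeq2, which gave an adjusted p to 228 rows with a symbol, called 10 of them (4.39%, against 4.79% of all its rows), of which 6 were among the 189. Without control library 3 it called 2 of 184, Gm20721 and KIAA1614_s17.138 (1.09%, against 3.99% of all its rows). Among rows with mouse identifiers, 10 were higher (6.06%) and 22 lower (13.3%) at an unadjusted p under 0.05 of 165 tested, against 5.85% and 10.3% of all rows. Without control library 3 the shares were 5.29% and 5.29% of 170, against 6.91% and 8% of all rows. Among rows with a symbol of their own 2 were higher (7.69%) and 5 lower (19.2%) of 26. Without control library 3 these shares were 7.14% and 14.3% of 28. The groups did not overlap in 43 of the 189 rows (22.8%, against 20.6% of all rows tested), and their median log2 change was -0.15. The genes below are the 10 with the smallest p in each direction, and their values describe levels that did not pass the test.

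Among the 10 rows higher in recovery, the better expressed were Nol6 and Cmah. The Nol6 protein takes part in making the small ribosomal subunit, and Cmah encodes an enzyme that converts one form of sialic acid into another. Nol6 was at 17.4, 18.6 and 13.3 CPM in control and 25.1, 25.3 and 23.5 CPM in recovery, with a log2 difference of 0.58 (SE 0.19, edgeR adjusted p = 0.183). Cmah was at 15.7, 14.5 and 14.5 CPM in control and 19.6, 23.3 and 18.9 CPM in recovery, with a log2 difference of 0.47 (SE 0.17, edgeR adjusted p = 0.224). Neither gene's groups overlapped, and Cmah was already at 22.8, 20.2 and 17.3 CPM in the heat libraries. Tmem30c, of a family of partner subunits of lipid flippases, was low throughout, at 0.36, 0.20 and 0.33 CPM in control and 1.49, 1.99 and 0.68 CPM in recovery. Ptprv, a receptor-type tyrosine phosphatase, was at 1.22, 0.74 and 1.44 CPM in control and 1.91, 4.17 and 2.61 CPM in recovery. Of the rest, Prss42 and Prss44 had log2 differences of 0.86 and 0.68, Gm266 0.70, BC067074 1.02, Gm28729 0.76 and C11orf80_s4.1479 1.30. Only BC067074 of the 10 had overlapping groups, but picking rows by a small p itself favours groups without overlap. Over all rows tested, the groups did not overlap in 20.6%.

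The 10 rows lower in recovery were picked by p and direction, which itself favours rows with a high control library. Control library 3 was the highest of the 9 libraries in 7 of them, and in 65 of all 189 tested rows with a symbol. Gm17571, a predicted mouse gene, moved most with that library. It was at 0.97, 0.93 and 23.1 CPM in control libraries 1 to 3 and at 0.27, 0.31 and 0.26 CPM in recovery, so the log2 difference was -4.84 with control library 3 and -1.74 without it. Gm20721 was at 68.7, 56.9 and 270 CPM in control and 42.7, 41.3 and 43.6 CPM in recovery, a log2 difference of -1.63 that became -0.56 without control library 3. Recovery stayed below the other control libraries in both rows. Gm10135 went from -3.02 to -1.39, and Gm11096 from -3.20 to -2.01.

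In KIAA1614_s17.138 and Fbxw17 the difference was nearly the same without control library 3. KIAA1614_s17.138 was at 4.98, 4.43 and 4.44 CPM in control and 1.43, 1.24 and 2.29 CPM in recovery, with a log2 difference of -1.48 (SE 0.43, edgeR adjusted p = 0.161) and of -1.51 without control library 3. Fbxw17, which encodes an F-box protein of the family that picks substrates for ubiquitin ligases, was at 24.6, 36.4 and 29.6 CPM in control and 17.5, 21.3 and 15.1 CPM in recovery. Its log2 difference was -0.75 (SE 0.25, edgeR adjusted p = 0.196), or -0.77 without control library 3, and its heat libraries were at 25.0, 38.5 and 46.7 CPM. Egfem1 was at 1.88, 2.36 and 1.11 CPM in control, at 0.42, 0.32 and 0.21 CPM after heat and at 0.58, 0.40 and 0.05 CPM in recovery. In Egfem1 the heat and recovery libraries overlapped and both lay below every control library. Hist1h2af, a replication-dependent histone H2A gene, was at 8.03, 18.1 and 32.3 CPM in control and 6.48, 5.41 and 10.8 CPM in recovery, with groups that overlapped and a log2 difference of -1.36, or -0.79 without control library 3.

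**Figure D3:**
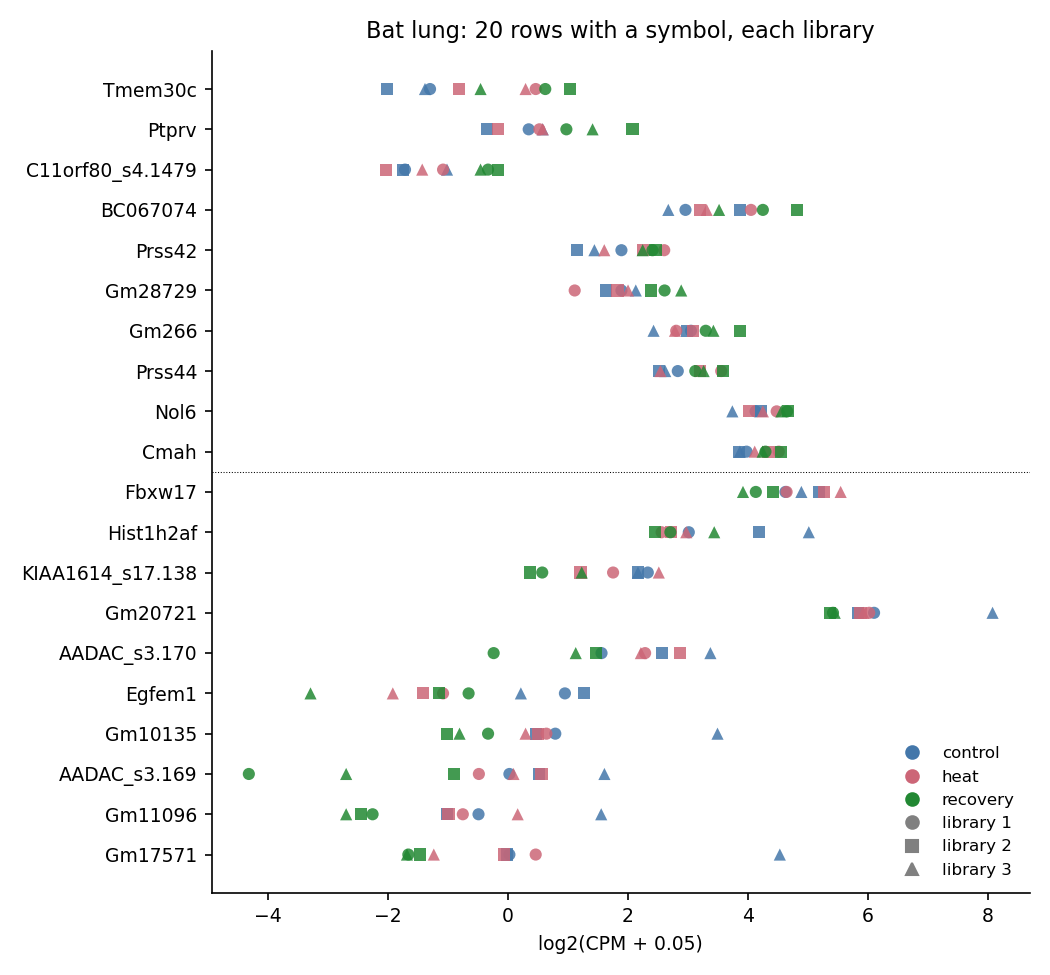
Level of 20 rows with a symbol in each of the 9 bat lung libraries, as log2(CPM + 0.05), coloured by condition and shaped by library number; the 10 rows above the dotted line were higher in recovery and the 10 below it lower. Control library 3 (blue triangle) is the highest point in 7 of the lower rows, as in Gm17571 at 23.1 CPM, and none of the 20 rows was called by edgeR.

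Of the rows with a symbol, 2 belonged to the gene lists of stress and cell type genes, and neither was called. Ahsa2 is named for its likeness to the activator of the HSP90 ATPase. It was at 7.88, 8.46 and 34.5 CPM in control, 12.4, 12.4 and 11.5 CPM after heat and 8.29, 8.73 and 6.31 CPM in recovery. Its log2 difference between recovery and control was -1.11 (SE 0.51, edgeR adjusted p = 0.323), and -0.07 without control library 3. KDR_s10.435 was at 179, 142 and 155 CPM in control and 190, 161 and 154 CPM in recovery, a log2 difference of 0.08 (SE 0.20, edgeR adjusted p = 0.876). Control and recovery overlapped in both genes.

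The rows with a symbol were also grouped by gene family, from families picked with these data in view, and none of the families had a called member. Of the enzymes of oxidation and conjugation, which act on lipids, drugs and other small molecules, 12 of 20 were tested, with a median log2 difference of -0.75, or -0.45 without control library 3. The median over all rows tested was -0.00, or 0.01 without that library. The 3 AADAC rows, for an esterase that splits acyl groups off drugs and lipids, were all lower in recovery. AADAC_s3.170 was at 2.90, 5.85 and 10.3 CPM in control and 0.80, 2.703 and 2.14 CPM in recovery, with log2 differences of -1.74 (SE 0.56, edgeR adjusted p = 0.183) and, without control library 3, -1.21. AADAC_s3.169 had -3.05 and AADAC_s3.171 -1.14, or -2.48 and -0.82 without control library 3. With all libraries the groups did not overlap in any of the 3, as in 20.6% of all rows tested. Reads of neighbouring copies may have been split between such rows, so the 3 are not independent.

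The most abundant enzyme of this family was Aox2, an aldehyde oxidase, at 278, 646 and 191 CPM in control and 217, 322 and 279 CPM in recovery. The flavin monooxygenase Fmo6 was at 71.1, 88.1 and 73.4 CPM in control and 109, 101 and 69.4 CPM in recovery. Both overlapped between groups, and their log2 differences were -0.45 and 0.27, or -0.76 and 0.23 without control library 3. The glutathione transferases differed in sign, with log2 differences of -1.04 in Gsta4 and 0.72 in Gstt3, and the latter had 1 high recovery library at 24.4 CPM against 8.95 and 11.3. The cytochrome P450 gene Cyp2t4 was at 4.22, 3.39 and 36.8 CPM in control and 3.35, 4.17 and 4.22 CPM in recovery. Its log2 difference of -1.90 became 0.04 without control library 3.

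Serine proteases of the PRSS family were the only family here in which each tested member was higher in recovery, 4 of 4. The share of all rows with a positive difference is not given here, so this cannot be read as particular to the family. Whether these related rows share reads was not tested. Their median log2 difference was 0.77, or 0.74 without control library 3. Prss42 was at 3.66, 2.16 and 2.66 CPM in control and 5.26, 5.45 and 4.69 CPM in recovery, and Prss44 at 7.06, 5.65 and 6.10 CPM and then 8.66, 11.96 and 9.54 CPM. The groups did not overlap in Prss42, Prss43 and Prss44, as in 20.6% of all rows tested, and did in Prss29. At an unadjusted p under 0.05 by edgeR, 2 of the 4 were higher with all libraries, against 5.85% of all rows. Without control library 3 it was 0 of the 4, against 6.91% of all rows. The adjusted p-values by edgeR were 0.278 for Prss42 and 0.294 for Prss44.

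T cell receptor gene segments, which T cells rearrange to form their antigen receptor, gave 13 tested rows of 25. Their summed level was 18.2 to 23.7 CPM in control and 17.4 to 28.3 CPM in recovery, and 0 of the 13 had an unadjusted p under 0.05. The median log2 difference was 0.13, or -0.04 without control library 3. Innate immune sensors and leukocyte proteins gave 6 of 22 rows and a median of -0.04, or -0.49 without control library 3. Tlr13, a sensor of bacterial ribosomal RNA, was at 12.7, 10.2 and 2.00 CPM in control and 9.88, 8.77 and 7.35 CPM in recovery. Plac8, found in many leukocytes, was at 4.77 CPM in control library 3, higher in the other 2 control libraries, and 5.68, 6.47 and 2.87 CPM in recovery. In both genes control library 3 was the lowest of its group.

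Zinc finger genes gave 9 tested rows of 16, with a median log2 difference of 0.25 that was 0.05 without control library 3. Rbak, a zinc finger repressor that binds the retinoblastoma protein, was at 80.4, 89.7 and 68.4 CPM in control and 91.9, 88.6 and 106 CPM in recovery. Of the chemosensory receptors, which serve smell and taste, 4 of 366 rows passed the filter on low counts, and their summed level did not exceed 4.65 CPM in any lung library. The transporter Abca17 was at 54.3, 71.1 and 88.2 CPM in control and 33.9, 57.6 and 55.5 CPM in recovery, with a log2 difference of -0.54 that was -0.36 without control library 3. The translation factor row EIF4G2_s4.922 was the most abundant of all rows with a symbol, at 1136, 1169 and 1032 CPM in control and 982, 868 and 996 CPM in recovery. Its groups did not overlap, and its log2 difference was -0.23 (SE 0.12, edgeR adjusted p = 0.388).

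Predicted mouse genes with Gm and Rik names had the median that moved most with control library 3 among these families. Of the 65 tested rows, 50 had a negative log2 difference and the median was -0.78, but without control library 3 the median was -0.05. Their summed level was 1788 CPM in control library 3 and 271 to 419 CPM in the other 8 libraries. At an unadjusted p under 0.05, 3 were higher and 15 lower with that library, and 2 were higher and 5 lower without it.

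Numbered non-coding RNA rows, which took a larger share of the counts in control library 3, were lower more often than higher, as were all rows tested together. Of 4018 tested, 150 were higher (3.73%, against 5.85% of all rows) and 914 lower (22.7%, against 10.3%) in recovery at an unadjusted p under 0.05, with a median log2 difference of -0.18. Without control library 3 these counts were 140 (3.37%, against 6.91%) and 531 (12.8%, against 8%) of 4153, and the median was -0.12. EdgeR then called 24 of the 4153 (0.578%, against 0.319% of all rows), 1 up and 23 down. Rows with human identifiers had 944 higher (6.4%) and 1017 lower (6.89%) of 14760 tested and a median of 0.02. Without control library 3 edgeR called 37 of 14912 (0.248%), of which 11 rose and 26 fell. Whether these classes differ was not tested. Antisense rows, transcripts on the strand opposite a gene, had 14 higher (8.81%, against 5.85% of all rows) and 9 lower (5.66%, against 10.3%) of 159 tested. Without control library 3 edgeR called 1 of 165 (0.606%, against 0.319% of all rows), which rose. For 118 antisense rows whose sense partner was also tested, the 2 changes had the same sign in 67.8%, with a Pearson correlation of 0.375 and a Spearman correlation of 0.349 across genes. The same sign was found in 64.4% without control library 3, and the correlations were 0.304 and 0.304. These pairs come from the same libraries, and without a stated strand setting their reads cannot be told apart.

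**Figure D4:**
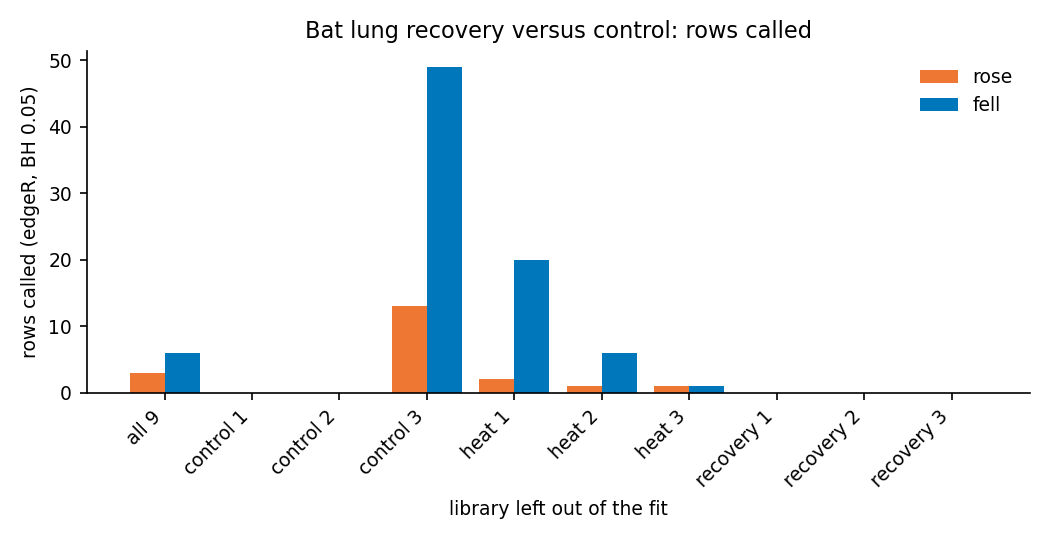
Number of rows that rose (orange) and fell (blue) between control and recovery at an edgeR adjusted p of 0.05, with all 9 bat lung libraries and with each library left out in turn. The count was 9 with all libraries, 62 without control library 3, and 0 without control library 1, control library 2 or any recovery library.

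The series set the bat beside the mouse, and the recovery change could be compared in the 85 genes that passed the filter in both species out of 660 with a shared symbol. Bat rows with human identifiers had no symbol and were left out. They held 91.8% to 95.8% of the counts of each bat lung library and every called gene. The 85 genes therefore do not stand for the whole recovery response of either species. The mouse lung libraries, 3 per condition with the same treatment times, held 17.1 to 27.4 M counts. The difference between the species' changes was called in 0 of 85 genes (0%) by edgeR's interaction test, with 18 at an unadjusted p under 0.05, and in 0 by limma-voom, with 11 at an unadjusted p under 0.05. Without bat control library 3 it was called in 0 of 86 genes by edgeR, with 13 at an unadjusted p under 0.05. The smallest p belonged to Cmah. Its log2 change was 0.47 in bat lung and -0.36 in mouse lung, a difference of 0.83 with a 95% interval from 0.27 to 1.40 (edgeR adjusted p = 0.183). In the mouse Cmah was at 62.8, 52.2 and 59.6 CPM in control and 53.5, 49.3 and 33.0 CPM in recovery.

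Nol6 differed by 0.64 between the species, with an interval from 0.16 to 1.12 (edgeR adjusted p = 0.183), with a change of 0.58 in the bat and -0.06 in the mouse. Egfem1 changed by -2.37 in the bat fit of this test and by -0.39 in the mouse, a difference of -1.98. The differences without control library 3 were 0.81 in Cmah, 0.51 in Nol6 and -2.21 in Egfem1. Ptprv, Adam4 and Fam169b had differences of 1.79, 1.68 and 1.37, each positive in the bat and negative in the mouse. KDR_s10.435 differed by 0.11, with an interval from -0.40 to 0.61. Ahsa2 reached 116 to 248 CPM in mouse lung right after heat, from 27.9 to 41.0 CPM in control, and was at 22.3 to 25.8 CPM in mouse recovery. In bat lung it was at 11.5 to 12.4 CPM right after heat, as given above. The difference between the species in the recovery change of Ahsa2 was -0.66, with an interval from -1.92 to 0.61, and it was 0.37 without control library 3.

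**Figure D5:**
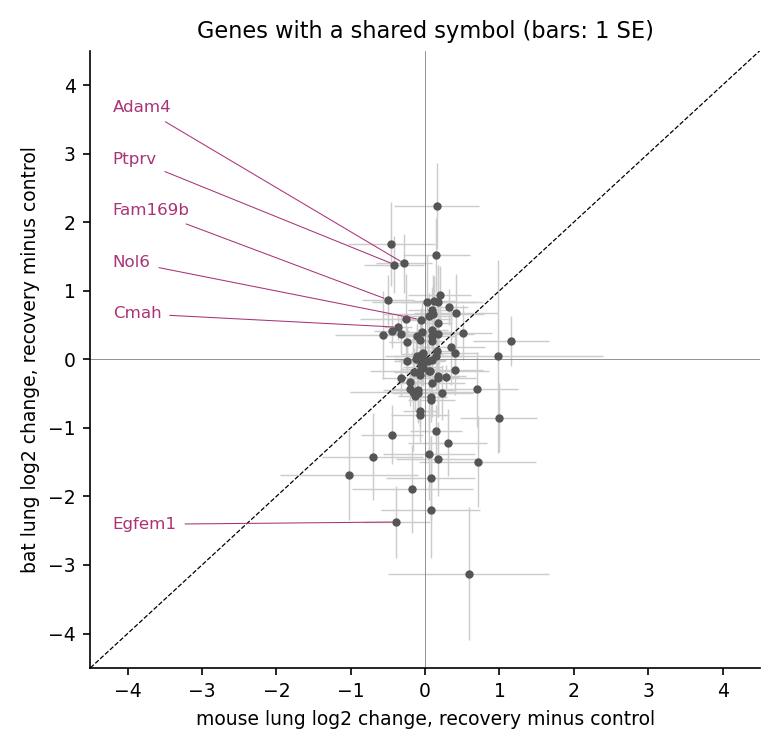
Log2 change from control to recovery in bat lung (vertical axis) against mouse lung (horizontal axis) for the 85 genes with a shared symbol; bars are 1 SE, the dashed line marks equal change, and the 6 genes with the smallest p are named. Cmah is at -0.36 in the mouse and 0.47 in the bat, and no gene was called.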

How the data were processed

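Libraries were NEBNext Ultra Directional, from TRIzol-extracted total RNA, per the labels' protocols. The authors used STAR 2.7 for alignment and featureCounts for counting, per the submitters' processing notes, where GRCm39, a mouse build, is the one listed for bat samples too. The bat assembly and annotation, the strand setting and the featureCounts version are not given in the sources used here. The deposited table holds whole-number counts of reads for each row and library, not normalized.

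All 9 bat lung libraries (3 control, 3 heat, 3 recovery) were fitted together with edgeR 4.0.16 (limma 3.58.1, R 4.3.3). Low rows were dropped with filterByExpr at a minimum count of 10 and a minimum total of 15. Scaling was by TMM (trimmed mean of M values) and the test was glmQLFTest with robust fitting. Adjusted p-values are Benjamini-Hochberg over all rows tested, and a row was called under 0.05; "rose" and "fell" are used for called rows. Levels are TMM-scaled CPM. The species difference was an edgeR interaction over 9 bat and 9 mouse lung libraries, each species scaled on its own table. Alternatives were other scalings and filters, DESeq2 1.42.0, limma-voom, fewer libraries and a replicate block. In data simulated for bat lung recovery versus control over 18947 rows, the edgeR test called 94% of 100 genes changed 4-fold, 39% of 100 changed 2-fold, and 12 unchanged rows. The changed genes had a mean of at least 5 CPM. Their spread followed the fitted trend with level, and no library was set apart.

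Named genes were up to 12 called rows per direction with a human symbol, the 10 rows with a symbol and the smallest p per direction, a stress panel and listed members. Of 902 listed symbols only 2 matched a row, so the lists of pathways and cell types and the panel could not be used; instead at most 2 identifiers per direction are given, and the families were grouped from the symbols later. The comparison, genes, lists and families were chosen with earlier results of these data known. Rows singled out beyond these rules, such as members of families and the genes with the smallest p between species, were chosen after their values were seen. Whether equal replicate numbers pair the lung libraries is not settled. The correlations of same-numbered deviations between control and recovery were 0.004, 0.09 and 0.07. Control libraries 2 and 3 each correlated best with the recovery library of their own number, and control library 1 with recovery library 2. No 2 libraries of a lung group were copies, since in rows with at least 20 reads the squared differences were at least 24.9 times what counting error gives.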

Additional observations from a re-analysis of the deposited data

How the results depend on the processing

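The count of 9 called rows moved to 18 with no filter on low counts, 950 with DESeq2, 14 with limma-voom, 16 with control and recovery libraries only and 20 with human identifiers only; with DESeq2 size factors in edgeR it was 12. Leaving out 1 library at a time gave 0 to 62, with 62 without control library 3, 22 without heat library 1, 7 and 2 without heat libraries 2 and 3, and 0 without any other. After seeing the data, DESeq2 without control library 3 (763 calls) and edgeR without control library 3 and the heat libraries (37 calls) were added. With a replicate block, edgeR called 0 rows, with 2756 at an unadjusted p under 0.05. Whether the numbers pair the libraries is not settled. All 9 rows stayed called under DESeq2, limma-voom, no filter and human identifiers only.

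The 4 identifiers kept their sign in all 18 alternatives, with log2 changes from 1.57 to 1.83, 1.17 to 1.24, -6.59 to -6.26 and -6.50 to -6.43 in the order ENSG00000160145, ENSG00000151117, ENSG00000204389 and ENSG00000204388. They lost the call in 6, 9, 7 and 7 of these, and the highest adjusted p was 0.176. KDR_s10.435 ranged from -0.0076, without recovery library 1, to 0.18 when 1 library was left out, and the species difference in Ahsa2 from -0.997 to 0.37, the latter without control library 3. The count of species differences was 0 to 3 when 1 bat library was left out. Those calls were A730049H05Rik, Gm15737 and Fam169b without control library 1, Adam4 without control library 2, and A730049H05Rik without any 1 recovery library. A730049H05Rik and Gm15737 were not among the 85 genes of the full comparison, and entered it when the filter on low counts was rerun without that library.

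With 3 libraries a group, 39% of simulated 2-fold changes were called. The simulation held no library set apart as control library 3 was, so the share detectable in the real libraries was not tested.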
